A study of Drosophila melanogaster with 6 samples.

Results

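The alkaline phosphatase genes of the fruit fly Drosophila melanogaster were followed in whole larvae homozygous for a null allele of the transcriptional kinase gene Cdk8. The 9 genes taken by name, Alp1, Alp2 and Alp4 to Alp10, were all found among the 17562 genes of the count table. The family was taken because Alp7 lay very far below its control level in the mutant, so the difference of Alp7 is given as a description without a test, and the other members were set beside it because they are its paralogs. Alkaline phosphatases are zinc-dependent enzymes that remove phosphate groups from many substrates outside the cell. Most are secreted through the endoplasmic reticulum and held on the outer face of the plasma membrane by a glycosylphosphatidylinositol (GPI) anchor, and in vertebrates the intestinal enzyme is a classical marker of the absorptive brush border. In flies the family has many members, and alkaline phosphatase activity is known from the midgut, the main site of digestion and absorption, and from the Malpighian tubules, the excretory organ that does much of the work of a kidney.

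The study asked which transcripts differ between larvae homozygous for the null allele cdk8K185 and larvae of the control strain w1118. RNA came from pools of 10 whole wandering larvae of the last instar, with 3 pools of cdk8K185 and 3 of w1118. The cdk8K185 lesion also removes part of the neighbouring gene I-2, an inhibitor of protein phosphatase 1, homozygous mutants still receive maternal Cdk8 product, and the strain that carries the allele had been crossed to w1118 over several generations. Cdk8 measured 4.73 to 7.22 CPM (counts scaled to a common library size) in the cdk8K185 libraries and 8.83 to 10.1 CPM in the w1118 libraries, and I-2 averaged 5.38 ± 0.212 CPM in cdk8K185 and 31.5 ± 3.83 CPM in w1118 (SD, n = 3 each), so a difference seen here cannot be told apart between loss of Cdk8, loss of I-2 and strain background. Library totals were 9208564 to 11724703 counts in cdk8K185 and 10428250 to 10973759 in w1118, and 3 counts, the floor below which a level was not read as detected, were worth 0.253 to 0.323 CPM. Nothing in the labels says that the pools came from separate cultures, so the tests measure the spread between these pools. In whole larvae, fewer cells of a type and less RNA per cell cannot be told apart.

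The libraries also differed in ways that do not concern the family alone. The 14 glue and stage genes include the salivary glue genes that peak late in the last instar. The 14 summed to 5910 to 9860 CPM in cdk8K185 and to 60000 to 80100 CPM in w1118. Without Fbp1 the sums were 3370 to 4300 CPM in cdk8K185 and 31800 to 38700 CPM in w1118. Of the 14, 3 were called higher (ng1, ng2 and ng3) and 11 lower, beside 36.9% of all tested genes called in either direction. Both ng1 and ng2 passed the filter through their cdk8K185 counts. The fat body and muscle markers overlapped between the genotypes, at 16200 to 40100 against 25500 to 39800 CPM for fat body and 4430 to 8940 against 3770 to 10200 CPM for muscle. The 4 neuron markers summed to 201 to 210 CPM in cdk8K185 and 336 to 367 CPM in w1118 through Syt1 alone, and without it to 74.2 to 84.5 CPM in cdk8K185 and 77.1 to 100 CPM in w1118, which overlapped. Replicate 1 of w1118 had the lowest sum of midgut markers of the 6 libraries, 4560 CPM, beside 8230 and 7540 CPM in the other w1118 libraries and 5580 to 8800 CPM in cdk8K185, and it also had the lowest sum of muscle markers. By edgeR 1 of 5 fat body markers and 1 of 4 neuron markers were called, both lower, beside 17.0% of all tested genes called lower. The part of developmental stage and of tissue share in the results below was not tested.

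A run of 3 members stands side by side on chromosome arm 2R, all on the minus strand and within 7072 bp of the dm6 build. Alp7 (FBgn0034710) lies at 2R:22203694-22205593, Alp2 (FBgn0283480) at 2R:22206005-22207987 and Alp8 (FBgn0034712) at 2R:22208464-22210765, with 411 bp between Alp7 and Alp2 and 476 bp between Alp2 and Alp8. These 3 neighbours differed between the genotypes in opposite directions: Alp7 was nearly absent from the mutant, whereas Alp8 was higher in it and Alp2 had counts only there.

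Alp7 had 5, 2 and 5 counts in the cdk8K185 libraries, against 558, 1327 and 970 counts in the w1118 libraries. After scaling these were 0.422, 0.196 and 0.43 CPM in cdk8K185 and 52.7, 132 and 104 CPM in w1118. The mutant levels lay around the 3-count floor, and the genotypes did not come near each other. Of the 10632 genes with enough counts for the test, only 2 had a more negative log2 fold change than Alp7, which stood at -8.03 ± 0.54 (SE), a 262-fold lower level in cdk8K185.

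Alp8 had 174, 98.8 and 124 CPM in cdk8K185, against 23.2, 68.4 and 49.4 CPM in w1118. Every mutant library was above every control library, and replicate 1 was the highest of the mutant libraries and the lowest of the control libraries. Alp8 averaged 132 ± 38.5 CPM in cdk8K185 and 47 ± 22.7 CPM in w1118, a log2 fold change of 1.49 ± 0.40 (SE) with a 95% interval of 0.52 to 2.47 and an adjusted p of 0.0297 by edgeR's quasi-likelihood test. Its rise was 2.82-fold and was called in 8 of 13 alternative fits. The call was lost without cdk8K185 replicate 1 (adjusted p = 0.0822), without cdk8K185 replicate 3 (0.0624) and without w1118 replicate 3 (0.062), and also when every gene with a count was kept (0.0635), all by edgeR.

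Alp2, the middle gene, had 14, 6 and 3 counts in cdk8K185 and none in any w1118 library. Its mutant levels were 1.18, 0.587 and 0.258 CPM, and the last of these is the floor itself. Set against a floor of 3 counts per w1118 library, 0.301 CPM on average, the mutant mean of 0.676 ± 0.469 CPM (SD) was 2.24 times as high. This ratio leaves out the counting error of the mutant mean, and cdk8K185 replicate 3 lay under that average. Too few counts were present for the main filter and the gene entered no call. As counts in cdk8K185 alone would bring it into a looser filter, its difference is given without a test.

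The ratio of Alp8 to Alp7 within each library, where sequencing depth cancels, also differed between the genotypes. Per kilobase of exon, the level of Alp8 was 324, 396 and 226 times that of Alp7 in the cdk8K185 libraries, against 0.345, 0.408 and 0.371 times in the w1118 libraries. The w1118 ratios stayed close together although Alp7 ranged 2.5-fold and Alp8 2.95-fold between those libraries, with both lowest in w1118 replicate 1 and highest in w1118 replicate 2. As these ratios contain Alp7, they are given without a test. The loss of Alp7 alone would raise them, so they do not show a rise of Alp8.

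**Figure D1:**
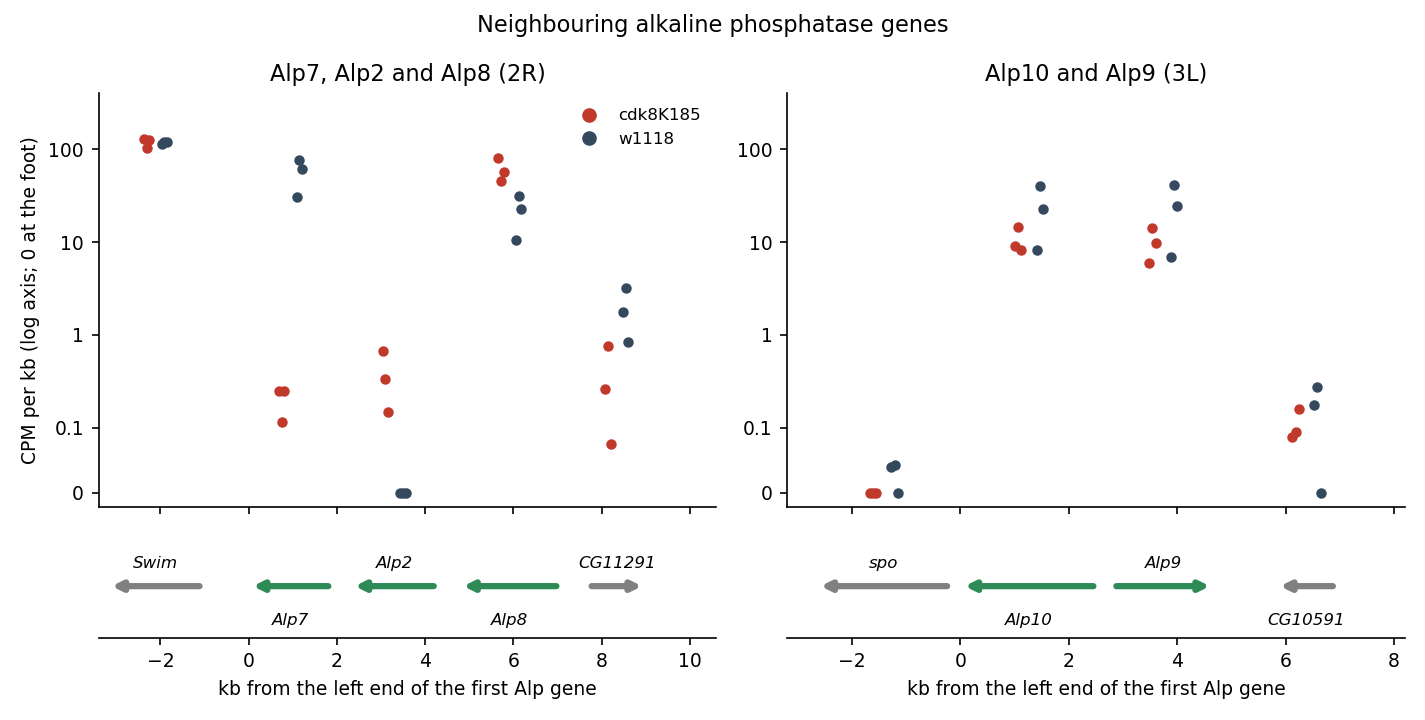
Level of each gene of the 2R cluster, the 3L pair and their flanking genes in CPM per kilobase of exon on a log axis (0 at the foot), 1 point per library, cdk8K185 left of w1118, above maps with arrows for strand and the distance in kilobases from the left end of the leftmost alkaline phosphatase gene on the x axis. Alp7 and Alp8 differ in opposite directions within 7072 bp, while the Alp9 and Alp10 points of the genotypes overlap.

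The genes that flank the cluster were read as a local comparison. Swim, which encodes a secreted cathepsin-B-like protein and begins 1022 bp from Alp7, averaged 259 ± 29 CPM in cdk8K185 and 257 ± 8.76 CPM in w1118, a log2 fold change of 0.01 ± 0.11 (SE). CG11291, 605 bp beyond Alp8, averaged 0.468 ± 0.46 CPM in cdk8K185 and 2.47 ± 1.51 CPM in w1118. It passed the filter through its w1118 counts, so its log2 fold change of -2.41 ± 0.8 (SE) is given without a test. In a window of 25 kb on either side, set after the values were seen, all 11 other protein-coding genes were tested. Of these, 1 was called higher and 4 lower (adjusted p under 0.05), beside 36.9% of all tested genes called in either direction. Among them are the organic anion transporter genes Oatp58Da, Oatp58Db and Oatp58Dc, 7690 to 12915 bp beyond Alp8. Oatp58Db had 1.18, 0.685 and 0.946 CPM in cdk8K185, against 17.9, 25.1 and 25.8 CPM in w1118, whereas the adjacent Oatp58Dc had 56, 29.6 and 44.3 CPM in cdk8K185, against 15.8, 10.4 and 16.6 CPM in w1118. Oatp58Db, 1 of the 4 called lower, passed the filter through its w1118 counts. Its log2 fold change of -4.58 ± 0.25 (SE) is therefore given without a test. Oatp58Dc, at 1.60 ± 0.28 (SE; adjusted p = 0.00505), was the gene called higher by edgeR. Neighbouring transporter paralogs thus also differed in opposite directions, and Oatp58Da fell with Oatp58Db, by 1.05 on the log2 scale (adjusted p = 0.00734). The remaining calls in the window were ari-2, a ubiquitin ligase gene, at -0.89 (adjusted p = 0.000875), and CG11170 at -1.32 (adjusted p = 0.00108), both by edgeR.

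Alp10 (FBgn0035619, 3L:5592741-5595272, minus strand) and Alp9 (FBgn0035620, 3L:5595542-5597422, plus strand) form a head-to-head pair whose starts are 269 bp apart. Both were lower on average in the mutant, and neither difference passed the test. Alp10 had 15.9, 25.5 and 14.5 CPM in cdk8K185, against 14.6, 70.7 and 39.8 CPM in w1118. Alp9 had 11.3, 26.6 and 18.2 CPM in cdk8K185, against 13, 77.8 and 46.7 CPM in w1118. In both genes w1118 replicate 1 lay among the mutant values while the other control libraries were above all of them.

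The log2 fold changes were -1.30 ± 0.63 (SE; 95% interval -2.81 to 0.22, adjusted p = 0.148) for Alp9 and -1.16 ± 0.55 (-2.48 to 0.16, adjusted p = 0.139) for Alp10 by edgeR, wide intervals that contain both no change and a more than 5-fold loss. Without w1118 replicate 1 they were -1.74 (adjusted p = 0.0236) and -1.57 (adjusted p = 0.0201). Without w1118 replicate 2 they shrank to -0.67 (adjusted p = 0.459) and -0.54 (adjusted p = 0.436), all by edgeR. Neither gene was called with any library other than w1118 replicate 1 left out. The pair moved together from library to library: per kilobase, Alp9 was 0.663, 0.969 and 1.17 times Alp10 in cdk8K185 and 0.833, 1.02 and 1.09 times in w1118, while Alp9 itself ranged 2.35-fold within cdk8K185 and 5.96-fold within w1118. Its outer neighbours spo and CG10591 had too few counts to be tested.

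Alp1 (FBgn0283479, 3L:21442227-21444819, minus strand) was the most abundant member in control larvae and fell in the mutant. RefSeq gives l-Aph and p-Aph among its older names. It had 89, 94.4 and 80.2 CPM in cdk8K185, against 445, 494 and 425 CPM in w1118. No library came near the other genotype, and within a genotype the highest library exceeded the lowest only 1.18-fold in cdk8K185 and 1.16-fold in w1118, the tightest of the tested members. The log2 fold change of -2.37 ± 0.12 (SE; 95% interval -2.64 to -2.1) had an adjusted p of 4.05e-05 by edgeR, a 5.18-fold lower level. The call held in 13 of 13 alternative fits, from -2.42 to -2.16. Per kilobase of exon its mean was 48.6 ± 3.96 CPM per kb in cdk8K185 and 252 ± 19.8 in w1118, beside 0.204 ± 0.0777 in cdk8K185 and 56.2 ± 23.4 in w1118 for Alp7, so the Alp1 difference was the larger of the pair in level and the smaller in fold.

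**Figure D2:**
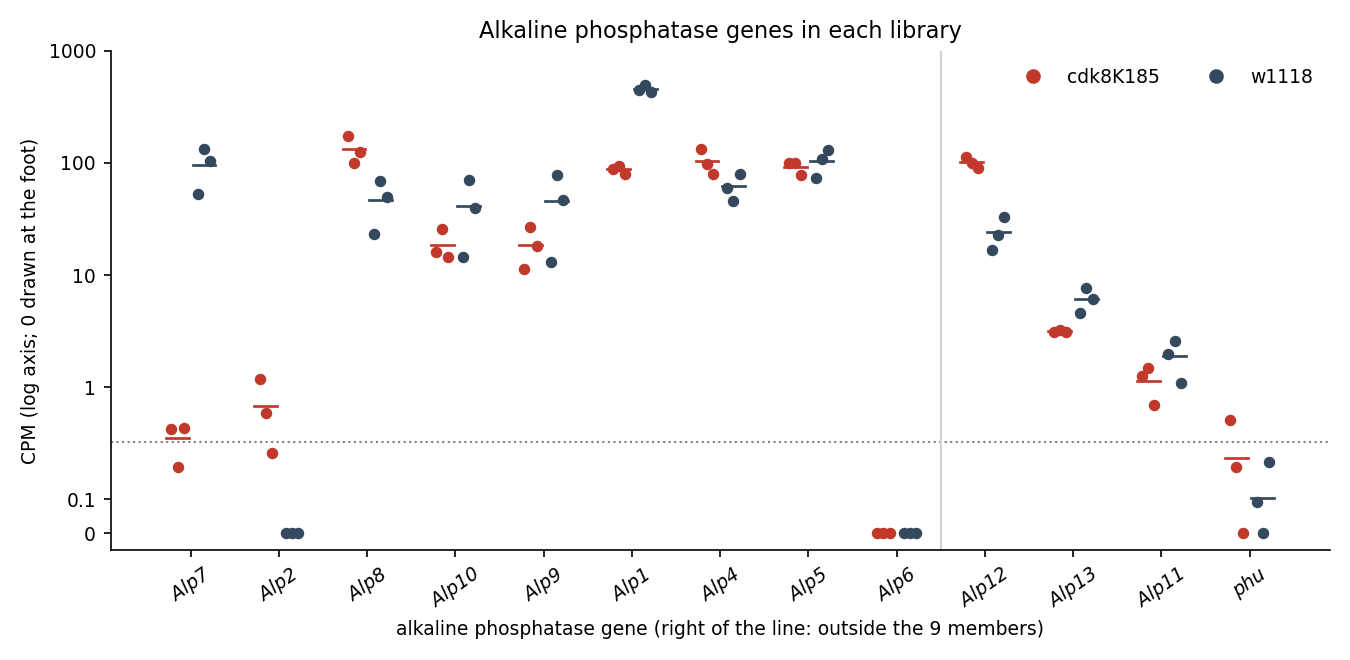
CPM of each of the 9 members and, right of the vertical line, the 4 other alkaline phosphatase genes on a log axis, 1 point per library, cdk8K185 left of w1118 for each gene, with bars at the group means. The dotted line is the highest 3-count floor, 0.323 CPM, and values of 0 sit at the foot of the axis. Alp1, Alp7 and Alp8 separate the genotypes, Alp4 nearly touches, Alp5, Alp9 and Alp10 overlap, and Alp6 is at 0 throughout.

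Alp4 (FBgn0016123, 3R:31048929-31052540, plus strand) encodes the alkaline phosphatase known from the Malpighian tubule and from the ellipsoid body of the adult brain. It had 134, 97.4 and 79.9 CPM in cdk8K185, against 60.1, 45.8 and 79.9 CPM in w1118. The lowest mutant and the highest control library thus touched at the precision printed. The log2 fold change of 0.75 ± 0.26 (SE; 95% interval 0.13 to 1.36) had an adjusted p of 0.0598 by edgeR, outside the threshold, and fell inside it with DESeq2 (0.72, adjusted p = 0.0258), with library totals as the scale (0.96, adjusted p = 0.0106) and without w1118 replicate 3 (0.99, adjusted p = 0.0306).

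Alp5 (FBgn0038845, 3R:21005160-21006990, minus strand) showed no difference that could be resolved. It had 100, 98.8 and 77.8 CPM in cdk8K185, against 73.9, 108 and 130 CPM in w1118, a log2 fold change of -0.17 ± 0.21 (SE; 95% interval -0.68 to 0.33, adjusted p = 0.545 by edgeR). Its sign turned with library totals as the scale (0.05) and without w1118 replicate 3 (0.03). The whole gene lies inside Calx, a sodium-calcium exchanger gene on the opposite strand, which was itself higher in the mutant by 1.97 on the log2 scale (adjusted p = 0.00066). Whether the counting used strand is not given in the sources used here, so reads of Alp5 and of Calx cannot be told apart with certainty. Alp6 (FBgn0033423, 2R:9561638-9563871, plus strand) had 0 counts in all 6 libraries. The noncoding gene asRNA:CR45281 overlaps it on the opposite strand over 2234 bp, so reads shared with that gene may not have been counted. Apart from such reads, 0 counts allow up to 0.323 CPM in the library with the highest floor.

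Of the 9 members, 8 had a count and 7 passed the filter, Alp7 through its w1118 counts alone. Among the 6 others that passed, 1 was called higher (Alp8) and 1 lower (Alp1), beside 19.9% of all tested genes called higher, 17.0% called lower and 36.9% called in either direction. Over all genes 2114 were called higher and 1805 lower, and 3452 higher and 1203 lower with library totals as the scale. The genotypes did not overlap in 3 of these 6, beside 53.6% of all tested genes, and their median log2 fold change was -0.67, beside 0.02 over all genes tested. Because the family was chosen for Alp7, these counts are descriptions of the members. Among the members given a test, only the call of Alp1 held in all 13 alternative fits.

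**Figure D3:**
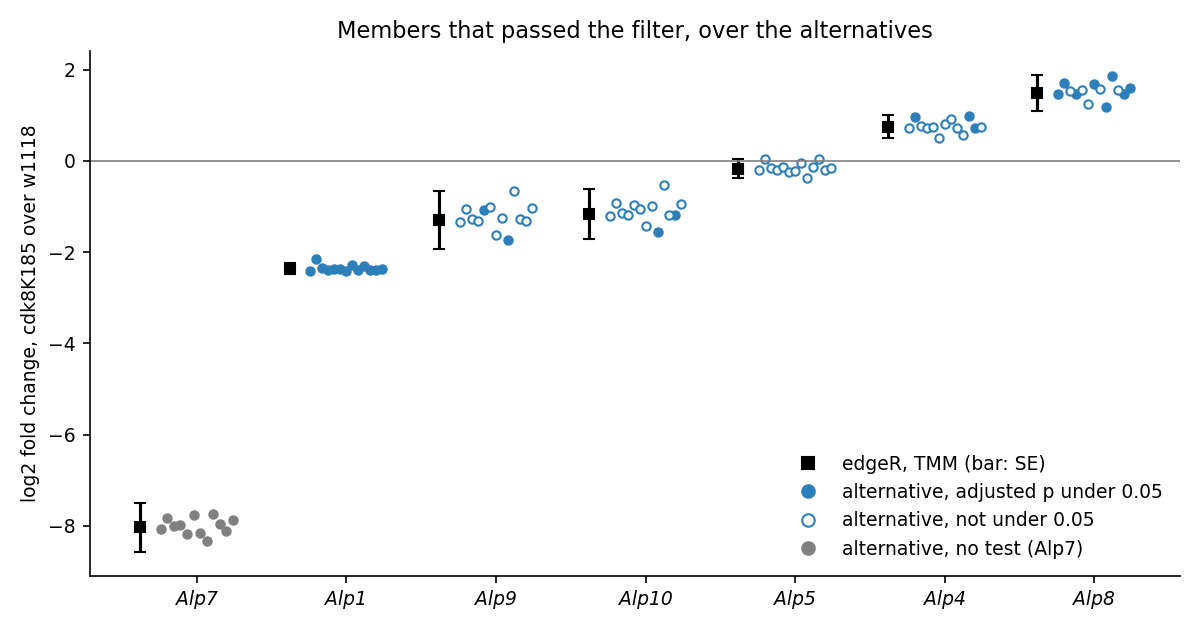
Log2 fold change, cdk8K185 over w1118, of the 7 members that passed the filter. Black squares give the edgeR estimate with its SE, filled circles the alternative fits with an adjusted p under 0.05, open circles those without, and grey circles the alternative fits of Alp7, which is shown with no test. Alp1 lies between -2.42 and -2.16 throughout, whereas Alp9 runs over -1.74 to -0.67.

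The make-up of the family differed between the genotypes. Per kilobase of exon, the 9 members together came to 199 to 261 CPM per kb in the cdk8K185 libraries and 372 to 547 in the w1118 libraries, with means of 229 ± 30.9 and 466 ± 88.1 (SD, n = 3 each). Alp1 made up 21.4 ± 2.23% of this sum in cdk8K185 and 55.2 ± 9.56% in w1118. Alp8 made up 26.4 ± 5.61% in cdk8K185 and 4.44 ± 1.46% in w1118. The sum was led by a single gene in control larvae and shared among several in mutant larvae. Alp5 accounted for 24.1 ± 1.72% in cdk8K185 and 13.3 ± 2.56% in w1118 and Alp4 for 18.6 ± 2.45% in cdk8K185 and 5.7 ± 1.94% in w1118, whereas Alp7 took 0.0904 ± 0.0379% in cdk8K185 and 11.7 ± 3.03% in w1118. The shares of Alp9 and Alp10 differed by less than their SDs, at 4.48 ± 2.0% and 4.71 ± 1.56% in cdk8K185 and 4.88 ± 2.86% and 4.8 ± 2.57% in w1118. The sum and the shares of Alp1, Alp4, Alp5 and Alp8 did not overlap between the genotypes, and they are given without a test because the chosen difference of Alp7 is part of the sum. A share also moves with the other members: Alp5 had the higher share in cdk8K185 although its level was 55.1 ± 7.47 CPM per kb in cdk8K185 and 62.1 ± 16.8 in w1118.

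**Figure D4:**
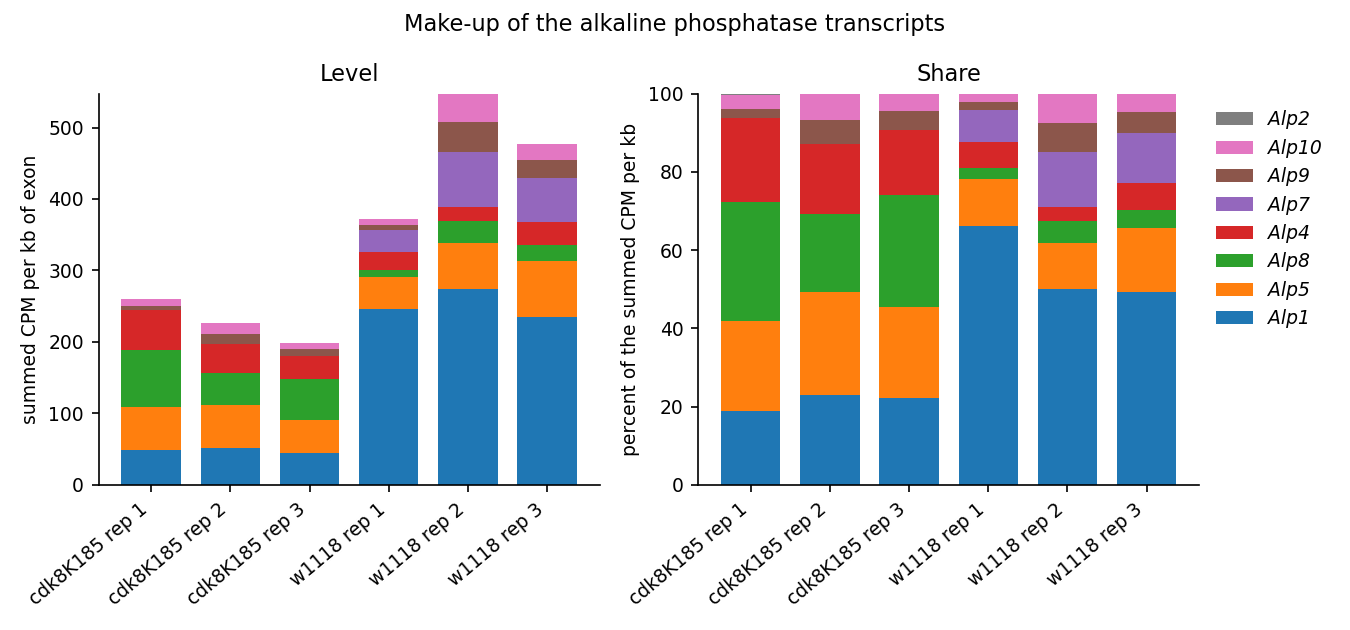
Level of each member in CPM per kilobase of exon, stacked for each of the 6 libraries, and beside it the same as a percent of each library's sum, with the cdk8K185 libraries left of the w1118 libraries. Alp1 makes up 18.9 to 23.1% of the cdk8K185 bars and 49.3 to 66.2% of the w1118 bars.

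The order of the members by level changed accordingly. In cdk8K185 it ran Alp8 at 60.6 ± 17.7, Alp5 at 55.1 ± 7.47, Alp1 at 48.6 ± 3.96 and Alp4 at 43.1 ± 11.5 CPM per kb, and neighbours in this order overlapped in their libraries. Alp10 at 10.7 ± 3.44 and Alp9 at 9.95 ± 4.07 CPM per kb followed, and Alp2, Alp7 and Alp6 were at or near the floor. In w1118 Alp1 stood alone at 252 ± 19.8 CPM per kb. It was followed by Alp5 at 62.1 ± 16.8, Alp7 at 56.2 ± 23.4, Alp4 at 25.7 ± 7.09, Alp9 at 24.4 ± 17.2, Alp10 at 23.8 ± 16.1 and Alp8 at 21.5 ± 10.4 CPM per kb, and each of these overlapped the next. Alp8 was therefore the highest member on average in the mutant and the lowest detected one in the control.

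The fly has 4 further alkaline phosphatase genes outside the 9. Alp12 (FBgn0032779, 2L:19424050-19429224, plus strand) had 114, 99.6 and 90.9 CPM in cdk8K185, against 16.7, 22.9 and 33.2 CPM in w1118. Its log2 fold change was 2.07 ± 0.24 (SE; adjusted p = 0.00109 by edgeR), beside 1.49 for Alp8, and it held in 13 of 13 alternative fits. The annotation puts Alp12 and CG13085 on the same strand over 5175 bp, with Pax on the other strand over part of it, so its reads may be shared with these genes. Alp13 (FBgn0037786, 3R:10073821-10075373) was low and lower still in the mutant, at 3.13, 3.23 and 3.09 CPM in cdk8K185 and 4.63, 7.64 and 6.14 CPM in w1118, with a log2 fold change of -0.96 ± 0.24 (SE; adjusted p = 0.0183 by edgeR). That call was lost without cdk8K185 replicate 1 (adjusted p = 0.0567), cdk8K185 replicate 3 (0.0557) or w1118 replicate 2 (0.0543). Alp11, which lies inside Chsy on the opposite strand, averaged 1.14 ± 0.405 CPM in cdk8K185 and 1.88 ± 0.757 CPM in w1118 and passed no test (-0.72 ± 0.47, adjusted p = 0.253 by edgeR), and phu, which RefSeq also lists as Alp3, had at most 6 counts in any library.

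Around the other members the flanking genes were mixed. Counting each gene once and leaving out genes that overlap a member, such as Calx over Alp5, the 9 members have 12 nearest protein-coding neighbours. Of the 12, 9 were tested. Of these, 2 were called higher and 2 lower, beside 36.9% of all tested genes called in either direction. Syx7 beside Alp1, Chchd3 beside Alp4 and Not1 beside Alp6 were not called (0.06, -0.12 and 0.14 on the log2 scale, adjusted p of 0.626, 0.519 and 0.509 by edgeR). Beside Alp1, CG5664 rose by 0.52 on the log2 scale (adjusted p = 0.0137), away from Alp1's direction, and beside Alp4, CanA1, a calcineurin catalytic subunit gene, was at -0.48 (adjusted p = 0.0103), both by edgeR. CanA1 was not called with library totals as the scale. CG43446, 17223 bp from Alp5, was called lower by edgeR (-1.05, adjusted p = 0.00341). CG5697, 8958 bp from Alp5 on the other side, was the other neighbour called higher, at 2.72 ± 1.81 CPM in cdk8K185 and 0.172 ± 0.131 CPM in w1118. Its w1118 mean lay under the 3-count floor, and it passed the filter through its cdk8K185 counts. Its difference is therefore given without a test.

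The tissues in which alkaline phosphatases are known were read from lists of marker genes, picked by name with earlier results of these data known. Of 19 tested midgut genes, 6 were called higher and 1 lower, 36.8% in all, beside 36.9% of all tested genes. The 6 include lambdaTry, which passed the filter through its cdk8K185 counts alone. Mal-A1, a maltase gene, had 318, 188 and 276 CPM in cdk8K185, against 33.8, 72.3 and 64.9 CPM in w1118, and rose by 2.19 ± 0.33 (SE) on the log2 scale (adjusted p = 0.0031 by edgeR). Peritrophin-15a, a gene for a protein of the gut's peritrophic lining, rose by 1.77 ± 0.22 (adjusted p = 0.00129), and the trypsin gene lambdaTry, at 2.69 ± 0.219 CPM in cdk8K185 with no counts in w1118, was at least 8.92-fold higher against a floor of 3 counts per library. The amylase gene Amy-d was the one called lower, at 402 ± 119 CPM in cdk8K185 and 886 ± 343 CPM in w1118 (-1.14 ± 0.35, adjusted p = 0.0434 by edgeR), a call that held in 7 of 13 alternative fits.

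The Malpighian tubule list was called in both directions, with 5 of 15 genes higher and 4 lower. That is 60.0% in all, beside 36.9% of all tested genes. The 4 called lower include Oatp58Db, which passed the filter through its w1118 counts. The median log2 fold change of the list was 0.06, beside 0.02 over all tested genes. Uro, which encodes the urate oxidase of the tubule, had 271, 158 and 267 CPM in cdk8K185, against 3.88, 18.4 and 15.4 CPM in w1118, a rise of 4.21 ± 0.55 (SE; adjusted p = 0.00201 by edgeR). SecCl, a chloride channel gene, rose by 1.83 (adjusted p = 8.79e-05) and Oatp58Dc, from the neighbourhood of Alp8, by 1.60, whereas Oatp58Db and the zinc transporter gene ZnT35C fell, ZnT35C to 5.9 ± 1.22 CPM in cdk8K185 against 28.3 ± 1.23 CPM in w1118 (-2.26, adjusted p = 0.00012). The leucokinin receptor gene Lkr was at -0.56 (adjusted p = 0.033 by edgeR) and was called in 4 of 13 alternative fits. Summed over the list, tubule markers came to 613 to 810 CPM in cdk8K185 and 447 to 498 CPM in w1118, a separation that Uro alone made. Without Uro the sums were 455 to 539 CPM in cdk8K185 and 443 to 482 CPM in w1118 and overlapped.

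Genes that handle phosphate and phosphoesters were read because they are close to the enzymes' own chemistry. Of 10 tested, 5 were called higher and 1 lower, 60.0% in all, beside 36.9% of all tested genes. Their median log2 fold change was 0.3, beside 0.02 over all tested genes. NaPi-T, a phosphate cotransporter gene, had 121, 100 and 121 CPM in cdk8K185, against 32.9, 45 and 41.4 CPM in w1118 (1.52 ± 0.14 SE, adjusted p = 0.000371 by edgeR). Mipp1, a multiple inositol polyphosphate phosphatase gene, rose by 1.40 (adjusted p = 0.0044) and Pdxk, the pyridoxal kinase gene, by 0.93 (adjusted p = 0.00265). Alkaline phosphatase is the enzyme that removes the phosphate from pyridoxal phosphate in mammals, and Pdxk puts it on. NT5E-2, whose product is a 5'-nucleotidase that also acts on phosphate monoesters outside the cell, was at -0.50 (adjusted p = 0.045 by edgeR) and was called in 6 of 13 alternative fits.

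The last list held genes of GPI anchor synthesis and attachment. Of 22 tested, 5 were called by edgeR, all higher and 22.7% in all. Over all tested genes 19.9% were called higher and 36.9% in either direction. The median log2 fold change of the list was 0.16, beside 0.02 over all tested genes. The count of 5 became 1 without cdk8K185 replicate 1, 2 without cdk8K185 replicate 3 and 1 without w1118 replicate 1. It was 3 by DESeq2 and 9 with library totals as the scale. PIG-V, which adds a mannose to the anchor, averaged 22.2 ± 0.21 CPM in cdk8K185 and 14.4 ± 2.33 CPM in w1118 (0.63 ± 0.13 SE, adjusted p = 0.00966) and was called in 13 of 13 alternative fits. PIG-X (0.74, adjusted p = 0.0188) and PIG-Wa (0.74, adjusted p = 0.0398) were called in 10 and 7 of 13.

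**Figure D5:**
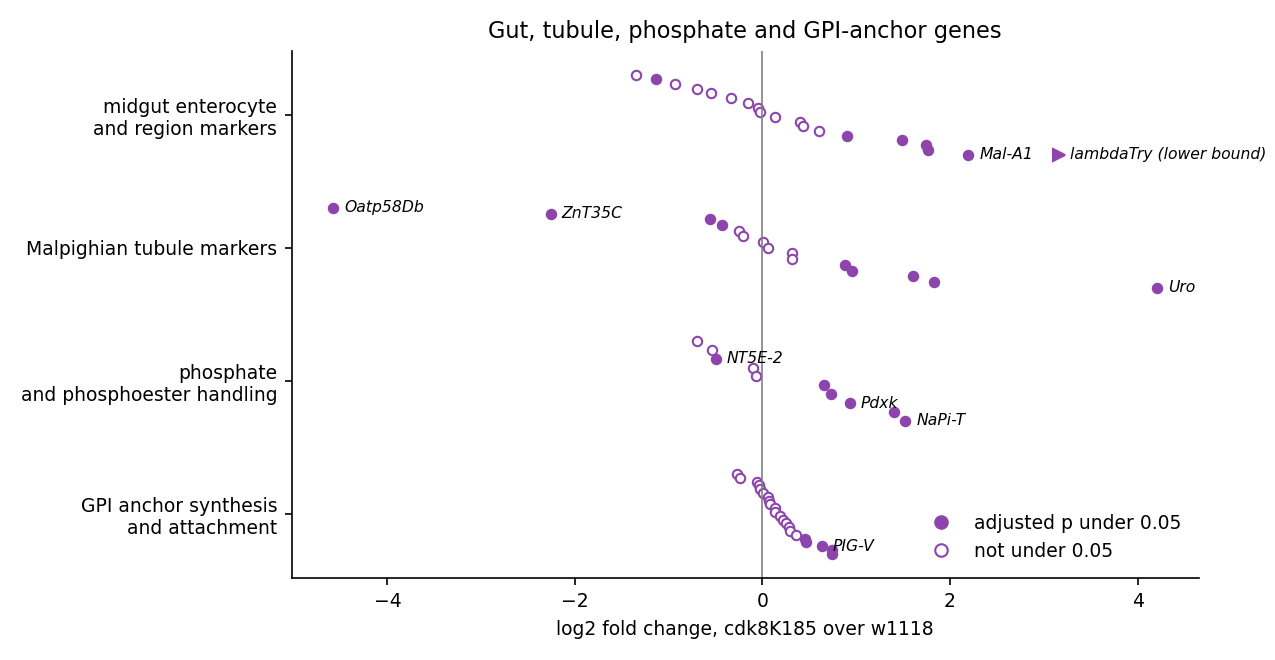
Log2 fold change, cdk8K185 over w1118, of each tested gene in the midgut, tubule, phosphate and GPI anchor lists, 1 point per gene, with genes under an adjusted p of 0.05 filled. The triangle for lambdaTry is a lower bound. Tubule genes spread from -4.58 for Oatp58Db, which passed the filter through its w1118 counts, to 4.21 for Uro. PIG-V of the GPI anchor list is at 0.63.

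The genes whose levels ran most like each member over the 6 libraries were found by the Euclidean distance between log2 CPM profiles centred on their means, among the 7725 genes that averaged 3 or more on the log2 CPM scale. For Alp9 and Alp10 the nearest gene was the other of the pair, at a distance of 0.659. The amylase genes Amy-p (1.1 from Alp9 and 0.73 from Alp10) and Amy-d (1.24 and 0.8) were also among the 5 nearest of both. Amy-p had 301, 430 and 298 CPM in cdk8K185, against 359, 874 and 727 CPM in w1118, and like the pair it was lowest among the controls in w1118 replicate 1. The nearest profiles to Alp7 were much farther off, with nol at 1.3, the cathepsin L gene CtsL3 at 2.06, the glue gene Sgs1 at 2.14, CG34276 at 2.21 and the peptidoglycan recognition gene PGRP-SC2 at 2.62. These distances contain the genotype difference for which Alp7 was chosen, so they are a description only.

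Alp1 lay nearest to CG42808 (0.238), SPH93 (0.269), I-2 (0.297), Tsp42Ek (0.35) and Lsd-1 (0.355). As profiles were centred over all 6 libraries, the distances of every member also contain the genotype difference. The 5 genes nearest to Alp1 had log2 fold changes of -2.55 to -2.31, beside -2.37 for Alp1. Of these, I-2 is cut by the lesion itself. Alp8 lay nearest to CG31288 (0.32) and the ammonium transporter gene Rh50 (0.435), followed by CG7084, CG18180 and CG13315 at 0.618 to 0.642. Alp4 lay nearest to CG3734 and Picot (0.304 each), CG32407, CG13086 and CG6972, and Alp5 to Neb-cGP (0.207), Snmp1 (0.208), CG44242, CG13631 and CG31373. Picot, an inorganic phosphate cotransporter gene of the phosphate list, was at 0.73 (adjusted p = 0.0361 by edgeR), with the call lost in 4 of 13 alternative fits. No other alkaline phosphatase gene was among the 5 nearest of Alp1, Alp4, Alp5 or Alp8. For Alp7 the same held, but its distances follow the difference for which it was chosen.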

How the data were processed

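Whole-larva RNA was sequenced from 6 pools of 10 larvae, 3 per genotype. The deposited table holds whole-number counts per gene, not normalised; the submitters' processing notes name STAR, featureCounts, DESeq2 and the dm6 build, without versions, and the strand setting, the treatment of reads shared by paralogs and the annotation release are not given in the sources used here, so reads of near-identical copies could be split or lost. Genes were filtered with edgeR's default filter (minimum count 10, minimum total 15), scaled by TMM and tested with edgeR 4.0.16 (R 4.3.3; quasi-likelihood, robust), with Benjamini-Hochberg adjustment over 10632 genes and a threshold of 0.05 on the adjusted p. The genotype was the only term. CPM use TMM-scaled sizes of the tested genes, and CPM per kb divide by the summed exon length. A standard error is the log2 fold change over the root of F, and intervals are 95%. The precision of the low values is set by the library totals given with the results, and the floor covers counting error only. Coordinates and exon lengths are from the BDGP6.54 annotation, which uses the dm6 assembly. Gene names were taken from it and from RefSeq (17477 of 17562 identifiers matched).

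Alternatives were RLE size factors, library totals, DESeq2 1.42.0, limma-voom (limma 3.58.1), filters of at least 1 count in some library and 10 in every library, a replicate block, and each library left out. The pipeline was tested on simulated data. No 2 libraries agreed within sampling noise. The genes named are the 9 members, the other alkaline phosphatase genes, Cdk8 and I-2, up to 3 called genes per direction and list, tested flanking genes, and the 5 nearest profiles of members averaging 3 or more on the log2 CPM scale. Members, lists and rules were chosen with earlier results of these data known. Calx, ari-2, Oatp58Da and CG11170 were named after their values were seen. No sequences were compared.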

Additional observations from a re-analysis of the deposited data

How the results depend on the processing

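Over 13 alternatives the count of all genes called ran from 2746 to 4655 (3919 with the settings of the report), and that of members past the threshold from 2 to 6 (3). These member counts include Alp7, for which the family was chosen, and with DESeq2 Alp2, which enters through its cdk8K185 counts alone, and neither is a test. DESeq2 gave 6, the others being Alp1, Alp4, Alp8 and Alp10, and leaving out 1 library gave 2 to 5, with 5 without w1118 replicate 1, where Alp9 and Alp10 joined. Alp5, which was called nowhere, changed sign with library totals (0.05) and without w1118 replicate 3 (0.03), and ran from -0.37 to 0.03 with 1 library left out. Chchd3, also uncalled, was at 0.09 with library totals and ran from -0.25 to 0.01 with 1 library left out. Swim, called nowhere, was at 0.22 with library totals, -0.03 with RLE, -0.02 with at least 10 counts in every library, -0.02 with DESeq2, and -0.05 to 0.1 with 1 library left out. CG11291, given without a test, ran from -3.45 to -1.86 over the alternatives. Library totals moved the median log2 fold change of all genes by 0.22, with 3452 genes called higher and 1203 lower, against 2114 and 1805 with TMM, 1923 and 1976 with RLE and 1848 and 2324 with DESeq2. The cause of these shifts was not tested. Alp7, without a test, stayed between -8.33 and -7.74. The family shares kept their side when not divided by length (Alp1 19.5% in cdk8K185 and 54.4% in w1118).

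Same-numbered libraries deviated from their genotype means with correlations across genes of -0.195, 0.508 and 0.562, and cdk8K185 replicate 1 was closest to w1118 replicate 2 (0.265), so the numbers were not taken to pair the pools. With the replicate number as a block, 3988 genes were called, and 3 members passed the threshold, Alp1 and Alp9 as lower beside Alp7, which is no test. Alp8 was then at 1.56 (adjusted p = 0.0991) and Alp9 at -1.08 (adjusted p = 0.0437) by edgeR. Levels near or under the 3-count floor (0.253 to 0.323 CPM), as for Alp2, Alp6 and mutant Alp7, are limited by depth.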
